A study of Mus musculus with 7 samples.

Results

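The 38 lysosome and autophagy genes described here were picked by symbol, as a list that spans the transcription factor Tfeb, the lysosomal membrane, its proteases, glycosidases and lipid-handling proteins, the vacuolar ATPase (v-ATPase), and the proteins that start and build autophagosomes. All 38 were found among the 23413 gene symbols of the count tables, and all 38 were among the 15881 genes with enough counts to be tested. Cortical RNA was sequenced from 7 APP/PS1 mice of C57BL/6 background, 4 fed a control diet (CD) and 3 fed a ketogenic diet (KD). Every animal carried the transgenes, human APP with the Swedish mutation and a deleted form of presenilin (PSEN1dE9), which in this line are driven by the prion protein promoter, so the comparison is between diets within the disease model. All mice ate chow until 6 months of age, were then assigned to a diet and housed singly, and were 13 months old at collection after 7 months of diet. Daily food was of equal energy on both diets. The study measured the ketone body beta-hydroxybutyrate in blood after a meal and after an overnight fast. Tissue was collected after the morning measurement. CD supplied 74% of its energy as carbohydrate, 10% as protein and 16% as fat, and KD less than 0.5% as carbohydrate, 10% as protein and 90% as fat. The labels name the control diet SD.

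Lysosomes are acidic organelles in which proteases, glycosidases and lipid enzymes break down material delivered by endocytosis and by autophagy. In autophagy a double membrane closes around cytoplasm, protein aggregates or organelles, after ATG8 proteins have been attached to the membrane, and then fuses with a lysosome. TFEB, the product of Tfeb, enters the nucleus when nutrients are scarce and switches on many of these genes through a short palindromic promoter element. Inherited loss of single lysosomal enzymes causes storage diseases, some of them with early damage to neurons.

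Libraries held 22272883 to 36614954 counts. Levels are given as CPM, counts scaled to a common library size, after TMM scaling of library sizes, and differences as log2 fold changes, KD minus CD. They were tested with the quasi-likelihood test of edgeR, and p-values were adjusted over all tested genes by the Benjamini-Hochberg method. Several libraries stood apart in markers of cell type, tissue or sex. Markers of oligodendrocytes were low in CD replicate 3 and KD replicate 3, with a summed level of 1220 and 1232 CPM against 2365 to 4628 CPM in the other 5 libraries. Markers of the striatum and ventral forebrain were highest in KD replicate 3, with a summed level of 169 CPM against 103 to 143 CPM elsewhere. Meningeal markers were high in CD replicate 4, with a summed level of 284 CPM against 43.4 to 135 CPM elsewhere. Xist, the RNA of the inactive X chromosome, was at 248 to 530 CPM in CD replicates 1 and 2 and KD replicates 1 and 2, and at 0.310 to 3.08 CPM in the other 3 libraries. The labels do not give the sex of the mice. In bulk tissue, fewer cells of a type and less RNA per cell cannot be told apart.

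No difference between KD and CD passed the test for any of these RNAs. None of the 38 genes had a Benjamini-Hochberg adjusted p under 0.05 in the edgeR test, where the members' adjusted p were 0.979 to 0.997. The share called among all tested genes was 0%. None of the 38 had a raw p under 0.05, against 3.19% of all tested genes, and none had a raw p of at most 0.01, against 0.321% of all. DESeq2 and limma-voom also gave 0 members at an adjusted or a raw p under 0.05. The members split evenly, with 19 of 38 (50%) higher in KD and 19 lower, where 49% of all tested genes were higher. The median log2 fold change was -0.0063 over the members and -0.0033 over all tested genes.

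For most members the data left room for a small difference at most. In 36 of 38 (94.7%) the 95% interval of the log2 fold change lay within a 1.5-fold change in either direction, against 56.8% of all tested genes. Tfeb and Gaa were the exceptions. The members were also more abundant than the typical gene, with a median level of 76.9 CPM against 18.9 CPM, and a median standard deviation between libraries of one diet of 0.117 on the log2 scale against 0.211. The CD and KD values of Grn and Mcoln1 did not overlap, both being higher in KD, where 2.05% of all tested genes were separated in that direction. No member was separated with lower values in KD, against 2.07% of all. The plot of fold changes shows the intervals gene by gene.

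**Figure D1:**
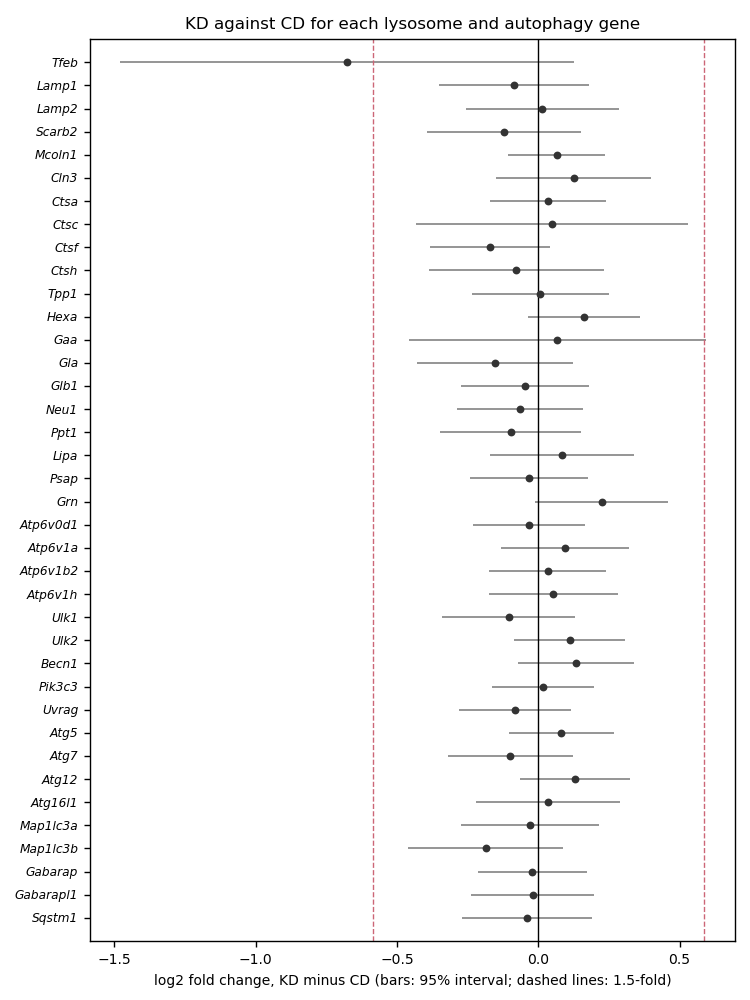
Log2 fold change (KD minus CD, horizontal axis) of each of the 38 genes with its 95% interval, from edgeR's quasi-likelihood fit to 4 CD and 3 KD libraries, with dashed lines at a 1.5-fold change. Tfeb and Gaa are the genes whose intervals cross a dashed line, and every interval includes 0.

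Because TFEB acts through promoter sequence, the RefSeq promoter windows of these genes (GRCm38.p6, 250 bases before to 50 after each transcription start) were searched on both strands for TCACGTGA, the inner part of the element bound by TFEB. The letters were found in 6 of the 30 members with a window (20%), in 10 of 104 other lysosome and autophagy genes (9.62%) and in 304 of all 27025 genes with a window (1.12%). The 6 members were Mcoln1, Cln3, Ctsa, Gla, Atp6v0d1 and Atp6v1a. They are shown here with the 8 letters in capitals, each read 5′ to 3′ on the strand of its gene, since they are the members whose windows hold all 8 letters. Ctsa and Gla held it at 2 positions each. From the transcription start, the first letter stood at -46 in Mcoln1, -122 in Cln3, -13 and 5 in Ctsa, -228 and -195 in Gla, -4 in Atp6v0d1 and -132 in Atp6v1a. In the GENCODE M21 annotation the stretches of Mcoln1, Cln3 and Ctsa overlap exons of some transcripts of the same gene, those of Gla overlap an exon of Hnrnph2 on the opposite strand, and those of Atp6v0d1 and Atp6v1a overlap no exon.
Mcoln1, chr8:3500462-3500491, plus strand: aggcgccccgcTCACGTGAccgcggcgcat
Cln3, chr7:126583340-126583369, minus strand: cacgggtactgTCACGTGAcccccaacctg
Ctsa, chr2:164833749-164833778, plus strand: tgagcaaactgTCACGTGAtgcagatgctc
Ctsa, chr2:164833766-164833795, plus strand: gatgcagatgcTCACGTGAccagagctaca
Gla, chrX:134601215-134601244, minus strand: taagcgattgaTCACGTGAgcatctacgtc
Gla, chrX:134601182-134601211, minus strand: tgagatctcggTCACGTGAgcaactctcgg
Atp6v0d1, chr8:105566050-105566079, minus strand: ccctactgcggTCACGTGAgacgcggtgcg
Atp6v1a, chr16:44139373-44139402, minus strand: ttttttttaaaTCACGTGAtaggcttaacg

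The shorter TCACGTG, which every TCACGTGA contains, was found in 10 members (33.3% against 4.29% of all genes) and added Lamp1, Gaa, Glb1 and Atg7. CACGTG, contained in both, was found in 12 members (40% against 8.09% of all genes) and added Ctsf and Atg5. The 3 windows of Tfeb held none of these letters. No window was listed for Ctsh, Atp6v1b2, Atp6v1h, Becn1, Pik3c3, Atg12, Atg16l1 and Map1lc3a. The 6 genes that hold TCACGTGA had log2 fold changes of -0.15 to 0.12 with a median of 0.05, 4 higher and 2 lower in KD. The 24 with a window that lack it ranged from -0.68 (Tfeb) to 0.22 (Grn), with a median of -0.04, 9 higher and 15 lower. For TCACGTG, 5 were higher and 5 lower with it, and 8 higher and 12 lower without. For CACGTG, 6 were higher and 6 lower with it, and 7 higher and 11 lower without. A match of letters is a description of the window and not of a bound site.

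Tfeb (chromosome 17, bases 47737030 to 47792419 of mm10, plus strand) encodes the transcription factor described above. Its level was 3.72, 3.49, 1.74 and 4.18 CPM in CD replicates 1 to 4 and 2.81, 1.65 and 1.73 CPM in KD replicates 1 to 3, from 39 to 159 counts per library. CD replicate 3 lay among the low KD values and KD replicate 1 lay between the groups, so the diets overlapped. The mean was 3.28 ± 1.07 CPM (SD, n = 4) in CD and 2.06 ± 0.648 CPM (SD, n = 3) in KD. The log2 fold change of -0.68 (SE 0.35) was the largest in size of the 38, with a 95% interval from -1.48 to 0.13 and a raw p of 0.0886 in edgeR's quasi-likelihood test. Without CD replicate 3 the log2 fold change was -0.89 with a raw p of 0.0151 in the same test, and without KD replicate 1 it was -0.96 with a raw p of 0.0406. In these fits 7.38% and 4.01% of all tested genes had a raw p under 0.05. Over all single libraries left out the Tfeb value ranged from -0.96 to -0.54. Over the other alternative settings it ranged from -0.71 to -0.51. Tfeb also had the lowest level per length of all members.

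The low Tfeb values fell in libraries with low markers of oligodendrocytes, the myelin-forming glia. Their mean log2 level over 9 genes was 8.16, 8.04, 6.25 and 8.09 in CD replicates 1 to 4 and 8.13, 7.19 and 6.18 in KD replicates 1 to 3. The 3 libraries with the lowest marker level, CD replicate 3 and KD replicates 2 and 3, were also the 3 lowest for Tfeb. Beyond that the order was not kept. KD replicate 2 had the lowest Tfeb, 1.65 CPM, at a marker level of 7.19. KD replicate 1, at a marker level of 8.13, had Tfeb at 2.81 CPM. CD replicates 2 and 4 had Tfeb at 3.49 and 4.18 CPM at marker levels of 8.04 and 8.09. Mbp, a myelin protein gene, was at 255 CPM in CD replicate 3 and 262 CPM in KD replicate 3 against 1217 CPM in CD replicate 1. All 9 markers of oligodendrocytes had lower values in KD, where 49% of all tested genes were higher, with a median log2 fold change of -0.44. None had a raw p under 0.05 in edgeR's quasi-likelihood test, against 3.19% of all tested genes. By mean log2 level, markers of astrocytes were also lowest in CD replicate 3 and KD replicates 2 and 3, with KD replicate 2 close to CD replicate 2. Their mean log2 level was 7.95, 8.13 and 7.94 there, against 8.15 to 8.28 in the other libraries. By summed level KD replicate 2 was not among the lowest, at 6449 CPM against 6156 CPM in CD replicate 2 and 6040 CPM in CD replicate 4. The part of either cell type in the Tfeb values was not tested.

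**Figure D2:**
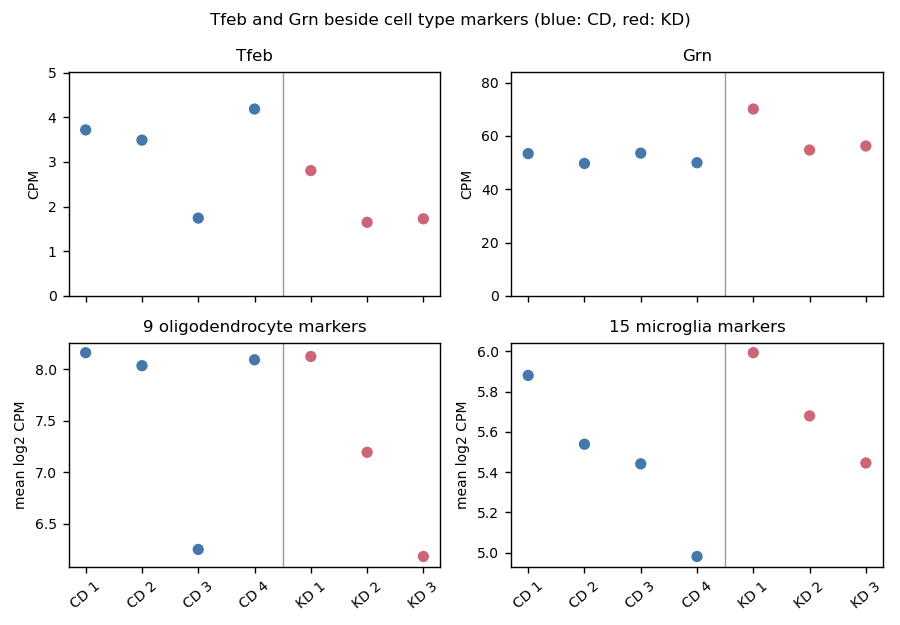
Upper panels: Tfeb and Grn in CPM in each library, CD in blue and KD in red. Lower panels: mean log2 CPM of 9 oligodendrocyte and 15 microglia markers in the same libraries, with axes that do not start at 0. The low Tfeb values of CD 3, KD 2 and KD 3 stand above the 3 lowest oligodendrocyte levels, and the Grn value of KD 1 stands above the highest microglia level.

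Lamp1 and Lamp2 encode the glycoproteins that line the lysosomal membrane, Scarb2 the receptor that carries glucocerebrosidase to the lysosome, Mcoln1 the calcium channel mucolipin and Cln3 a membrane protein lost in juvenile neuronal ceroid lipofuscinosis. Lamp1, the most abundant of them per length, was at 389.7, 380.2, 297 and 367 CPM in CD and 374, 330.4 and 308 CPM in KD. The lowest Lamp1 values were those of CD replicate 3 and KD replicate 3, and the diets overlapped. The log2 fold change was -0.09 (SE 0.12). Scarb2 was lowest in the same pair of libraries, at 126 and 129 CPM against 144 to 172 CPM in the other 5.

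Mcoln1 was at 45.0, 48.5, 48.3 and 44.6 CPM in CD and 48.6, 48.8 and 48.6 CPM in KD. The 3 KD values fell just above the highest CD value, so the ranges did not overlap, although CD replicates 2 and 3 lay close beneath them. Its log2 fold change was 0.06 (SE 0.07), with a raw p of 0.411 in edgeR's quasi-likelihood test, and the groups overlapped after upper-quartile scaling. Cln3, with the smallest raw p of the membrane genes (0.325 in the same test), was at 9.69, 10.1, 11.4 and 9.76 CPM in CD and 10.6, 11.5 and 11.5 CPM in KD. Its CD replicate 3 lay close to the upper KD values and above KD replicate 1, and the log2 fold change was 0.12 (SE 0.12). Lamp2 had a log2 fold change of 0.01 and Scarb2 one of -0.12.

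Among the proteases, Ctsa encodes cathepsin A, which protects the beta-galactosidase and neuraminidase complex, Ctsc, Ctsf and Ctsh encode cysteine cathepsins, and Tpp1 encodes the tripeptidyl peptidase lost in late infantile ceroid lipofuscinosis. Ctsf had the smallest raw p of this class. It was at 49.1, 52.1, 51.6 and 60.3 CPM in CD and 46.7, 45.9 and 49.5 CPM in KD. CD replicate 4 stood highest, and CD replicate 1 fell below KD replicate 3. This gave a log2 fold change of -0.17 (SE 0.09), with a raw p of 0.102 in edgeR's quasi-likelihood test. Ctsa, the most abundant per length, was at 95.1, 92.6, 82.1 and 82.0 CPM in CD and 97.2, 87.4 and 85.6 CPM in KD. Its values interleaved between the diets, with a log2 fold change of 0.03 (SE 0.09).

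Ctsc varied most within this class, over a 1.65-fold range, with its high values in CD replicate 4 and KD replicate 1 (15.2 and 16.1 CPM) and 9.76 to 11.1 CPM in the other 5 libraries. Its log2 fold change was 0.05 with a 95% interval from -0.43 to 0.53. Ctsh and Tpp1 had log2 fold changes of -0.08 and 0.01.

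The glycosidases trim sugar chains from glycolipids, glycoproteins and glycogen. Hexa encodes the alpha subunit of beta-hexosaminidase, lost in Tay-Sachs disease, and was both the most abundant per length and the one with the smallest raw p. It was at 71.0, 77.9, 75.1 and 66.2 CPM in CD and 86.0, 81.9 and 75.5 CPM in KD. KD replicates 1 and 2 lay above all CD values, and KD replicate 3 lay between CD replicates 3 and 2. KD minus CD was, on the log2 scale, 0.16 (SE 0.09), with a raw p of 0.0948 in edgeR's quasi-likelihood test. An exon of Tmem202 on the opposite strand covers 12.8% of the exonic length of Hexa.

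Gaa (chromosome 11, bases 119267887 to 119285454, plus strand) encodes the acid alpha-glucosidase that degrades glycogen in lysosomes, the enzyme lost in Pompe disease. It was at 142, 151, 139 and 173 CPM in CD and 136, 109 and 231 CPM in KD. KD held both the highest and the lowest value of the series, 231 CPM in replicate 3 and 109 CPM in replicate 2. Its log2 fold change was 0.07 (SE 0.23), with a 95% interval from -0.46 to 0.59. Without KD replicate 3 it was -0.31 with a raw p of 0.0472 in edgeR's quasi-likelihood test, so that library decided the direction. Among the 4 libraries with Xist the ratio of KD to CD was -0.26 on the log2 scale, and among the 3 without it was 0.57, where KD replicate 3 was the only KD library. The 2 libraries with the highest Gaa level were KD replicate 3 and CD replicate 4. These were also highest in olfactory bulb markers, at a summed 108 and 105 CPM against 11.5 to 20.3 CPM in the other 5 libraries. Meningeal markers were highest in the same 2 libraries, at a summed 135 and 284 CPM against 43.4 to 80.7 CPM in the others. The part of either tissue in the Gaa values was not tested.

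Gla, which encodes the alpha-galactosidase lost in Fabry disease and lies on the X chromosome, had a log2 fold change of -0.15. Glb1, for lysosomal beta-galactosidase, and Neu1, for neuraminidase, had log2 fold changes of -0.05 and -0.07. Each of these genes overlapped between the diets, and their levels spanned at most 1.46-fold over the 7 libraries.

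**Figure D3:**
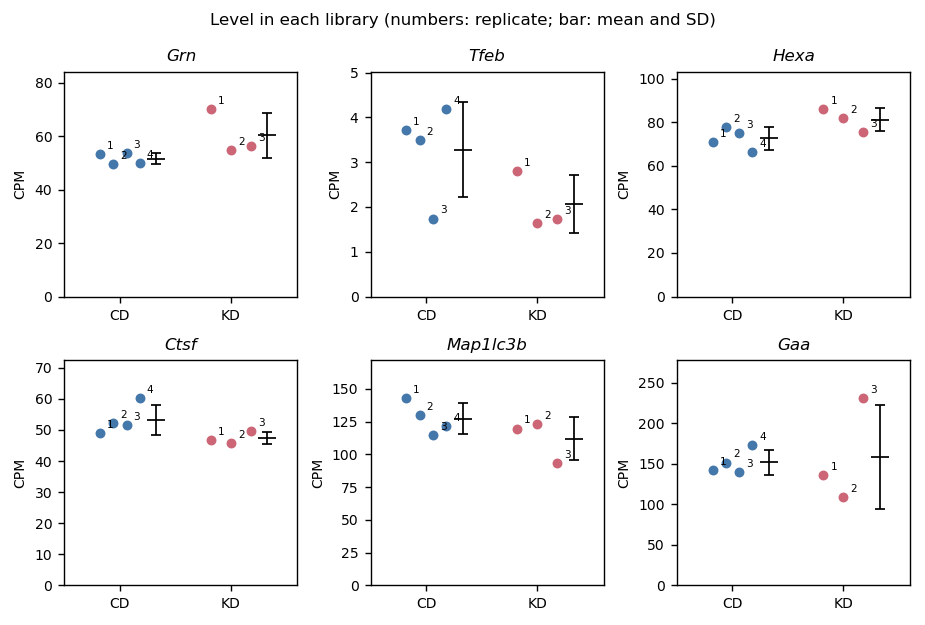
Level in CPM (vertical axes, from 0) of Grn, Tfeb, Hexa, Ctsf, Map1lc3b and Gaa in each library, with replicate numbers beside the points and the mean and SD of each diet as a black bar. KD values lie above all CD values for Grn, with overlap for the other 5 genes, and Gaa shows the KD value of 231 CPM far above the others.

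The lipid-handling and cofactor genes are Ppt1, for the thioesterase that removes palmitate from proteins, Lipa, for acid lipase, Psap, the precursor of the saposins that present glycolipids to their enzymes, and Grn. Grn (chromosome 11, bases 102430315 to 102437048, plus strand) encodes progranulin, a secreted and lysosomal protein that is abundant in microglia and whose loss of a gene copy causes frontotemporal dementia in people. It had the smallest raw p of all 38 members, 0.0590 in edgeR's quasi-likelihood test. Grn was at 53.4, 49.7, 53.5 and 49.9 CPM in CD and 70.1, 54.7 and 56.2 CPM in KD. All 3 KD libraries lay above all 4 CD libraries, KD replicate 1 by far and KD replicates 2 and 3 by little. The means were 51.6 ± 2.11 CPM in CD (SD, n = 4) and 60.3 ± 8.48 CPM in KD (SD, n = 3), with a log2 fold change of 0.22 (SE 0.10) and a 95% interval from -0.01 to 0.46. Without KD replicate 1 the log2 fold change was 0.10 with a raw p of 0.280 in the same test. Without KD replicate 2 it was 0.29 (raw p 0.0380), and without KD replicate 3 it was 0.27 (raw p 0.0488).

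Microglia, the macrophages of the brain, carried markers that moved with Grn in KD replicate 1. Their mean log2 level over 15 genes was 5.88, 5.54, 5.44 and 4.98 in CD and 5.99, 5.68 and 5.45 in KD, and their summed level was 645 to 1170 CPM in CD and 891 to 1323 CPM in KD. KD replicate 1 was the highest library for Grn and for this list, and CD replicate 4 was the lowest for the list and near the lowest for Grn. The other libraries did not keep this order. CD replicate 1, second highest for the list at 5.88, had Grn at 53.4 CPM, below KD replicates 2 and 3. CD replicate 2 had the lowest Grn, 49.7 CPM, at a marker level of 5.54. Of the 15 markers, 13 had higher values in KD, where 49% of all tested genes did, with a median log2 fold change of 0.25. In edgeR's quasi-likelihood test 2 had a raw p under 0.05, against 3.19% of all tested genes, and 0 had an adjusted p under 0.05. For protein, the study reported the microglial markers Iba1 and CD11b as reduced by KD in both sexes. The markers of plaque-associated microglia were also highest in KD replicate 1, at a summed 394 CPM against 254 to 314 CPM in the other libraries. The part of microglia in the Grn values was not tested.

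Psap was the most abundant member per length. It was at 1600.2, 1612, 1402 and 1421 CPM in CD and 1397, 1511 and 1520.3 CPM in KD. The values spanned a 1.15-fold range, with the diets interleaved, and the log2 fold change was -0.03 (SE 0.09). Ppt1 and Lipa had log2 fold changes of -0.10 and 0.08, and their ranges overlapped.

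The v-ATPase pumps protons into the lysosome. Atp6v1a encodes the catalytic subunit that hydrolyses ATP, Atp6v1b2 its non-catalytic nucleotide-binding partner, Atp6v1h a regulatory subunit of the same cytosolic domain, and Atp6v0d1 a subunit of the membrane domain that joins the 2 domains. Atp6v1a, with the highest level per length and the smallest raw p of the 4 (0.367 in edgeR's quasi-likelihood test), was at 1071, 1220.3, 1166 and 1011 CPM in CD and 1162, 1119.6 and 1296 CPM in KD. CD replicate 2 lay above KD replicates 1 and 2, and the log2 fold change was 0.09 (SE 0.10). Atp6v1b2, Atp6v1h and Atp6v0d1 had log2 fold changes of 0.03, 0.05 and -0.03. The class was steady across libraries, with at most a 1.28-fold range for any subunit.

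The proportions of the subunits were compared as ratios. The level per length of Atp6v1a relative to Atp6v1b2 was 1.25 ± 0.058 in CD (SD, n = 4) and 1.30 ± 0.032 in KD (SD, n = 3). For Atp6v0d1 this ratio was 0.907 ± 0.0403 in CD and 0.871 ± 0.103 in KD, and for Atp6v1h it was 0.199 ± 0.0159 in CD and 0.203 ± 0.0284 in KD. For each subunit the KD ratios overlapped the CD ratios.

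Autophagy starts with the ULK kinases, encoded by Ulk1 and Ulk2, and with a lipid kinase complex built from Pik3c3, Becn1 and, in one of its forms, Uvrag. Becn1 had the smallest raw p of this class. It was at 88.5, 98.6, 101 and 91.6 CPM in CD and 95.5, 102 and 115 CPM in KD. KD replicates 2 and 3 lay above all CD values and KD replicate 1 lay within them. This gave a log2 fold change of 0.13 (SE 0.09), with a raw p of 0.174 in edgeR's quasi-likelihood test. Exons of Cntd1 on the opposite strand cover 43.9% of the exonic length of Becn1, and since the strand setting of the counting is not given in the sources used here, reads of the 2 genes may not be told apart.

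Ulk2, the most abundant per length of these, was at 198, 173, 191 and 176 CPM in CD and 210.2, 204 and 184 CPM in KD. KD replicates 1 and 2 were the highest libraries and the ranges overlapped, with a log2 fold change of 0.11 (SE 0.09). Ulk1 had a value of opposite sign, a log2 fold change of -0.11. Pik3c3 and Uvrag had log2 fold changes of 0.02 and -0.08.

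Conjugation of ATG8 proteins to the membrane needs Atg7, the activating enzyme, and the complex of Atg5, Atg12 and Atg16l1. Atg12 had the smallest raw p of the 4, 0.169 in edgeR's quasi-likelihood test, and was at 70.9, 65.4, 67.3 and 70.5 CPM in CD and 72.9, 69.1 and 82.8 CPM in KD. KD replicates 1 and 3 lay above all CD values and KD replicate 2 lay within them. KD minus CD was, on the log2 scale, 0.13 (SE 0.09). Atg5, the most abundant per length, was at 34.7, 32.9, 33.7 and 31.2 CPM in CD and 36.2, 33.4 and 35.6 CPM in KD. KD replicates 1 and 3 lay above all CD values and KD replicate 2 lay among them, with a log2 fold change of 0.08 (SE 0.08). Atg7 and Atg16l1 had log2 fold changes of -0.10 and 0.03.

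The ATG8 family and the receptor Sqstm1, which encodes the p62 protein that links ubiquitin-tagged cargo to the forming membrane, had small negative log2 fold changes in all 5 cases, from -0.19 to -0.02, and none had a raw p under 0.05 in edgeR's quasi-likelihood test. The sign changed in 2 of 18 alternative settings for Map1lc3a, Gabarap and Gabarapl1, in 1 for Sqstm1 and in 0 for Map1lc3b. Only RNA was measured in these data, not LC3 or p62 protein or autophagy itself. Map1lc3b, one of the LC3 genes, encodes the usual protein marker of autophagosomes. Map1lc3b had the smallest raw p of the 5, 0.158 in edgeR's quasi-likelihood test. It was at 143, 130.0, 115 and 121 CPM in CD and 119.7, 123 and 93.2 CPM in KD. KD replicate 3 was the lowest library and KD replicates 1 and 2 lay within the CD range. The log2 fold change was -0.19 (SE 0.12). With the log2 level of Xist as a covariate it was -0.22 with a raw p of 0.0202 in the same test.

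Map1lc3a was at 86.8, 95.4, 77.1 and 91.6 CPM in CD and 78.0, 97.0 and 83.0 CPM in KD. Gabarap was at 143, 151, 131 and 140.1 CPM in CD and 139, 129 and 149.8 CPM in KD. Gabarapl1 was at 785, 906, 774 and 729 CPM in CD and 755, 823 and 785 CPM in KD. For these 3 genes the KD values lay inside or next to the CD range, with log2 fold changes of -0.03, -0.02 and -0.02. Sqstm1 was at 459, 486, 416 and 377 CPM in CD and 418, 411 and 439 CPM in KD. All 3 KD values lay inside the CD range, and the log2 fold change was -0.04 (SE 0.10). Exons of genes on the opposite strand cover 28.3% of Gabarapl1 and 17.3% of Sqstm1.

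Per length, Gabarapl1 made up most of the ATG8 RNA. Its share of the summed level of Map1lc3a, Map1lc3b, Gabarap, Gabarapl1 and Gabarapl2 was 67.3% ± 1.75 in CD (SD, n = 4) and 67.6% ± 0.254 in KD (SD, n = 3). Gabarap and Map1lc3a followed at 13.04% and 12.6% in CD, then Gabarapl2 at 4.12% and Map1lc3b at 2.88%. With the length of the longest transcript the Map1lc3b share in CD was 4.49%. The Map1lc3b share was 2.57% in KD, the largest relative difference of the 5, with an exact two-sided permutation p of 0.343. The other 4 shares had exact permutation p of 0.771 to 1, and all 5 were 1 after Benjamini-Hochberg adjustment. The smallest p that 4 libraries against 3 allow is 0.0286. Scaling between libraries cancels in these shares.

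**Figure D4:**
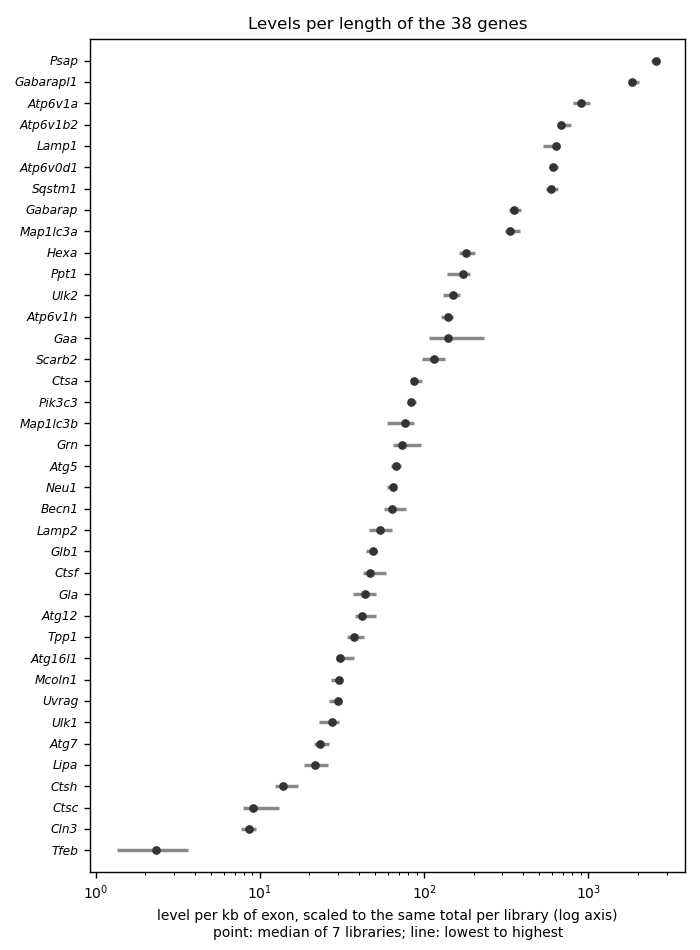
Level per kilobase of merged exons (horizontal log axis, scaled to the same total in every library) of the 38 genes, with the median of the 7 libraries as a point and the lowest to highest library as a line. Psap at 2571 and Gabarapl1 at 1846 lead, and Tfeb at 2.34 is the lowest.

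Across the whole list the level per length, counts per kilobase of exon scaled to the same total in every library, ranged from a median of 2571 for Psap to 2.34 for Tfeb. After Psap came Gabarapl1 (1846), Atp6v1a (907), Atp6v1b2 (679), Lamp1 (640), Atp6v0d1 (612) and Sqstm1 (595). Gabarap (355) and Map1lc3a (335) followed. Of the 37 pairs of neighbours in this order, 7 had ranges over the 7 libraries that did not overlap, the steps below Psap, Gabarapl1, Atp6v1a, Sqstm1, Map1lc3a, Lipa and Cln3. The other 30 neighbouring pairs had ranges that overlapped, and 4 of them kept the same order in every one of the 7 libraries while the order of 26 varied between libraries. At the lower end lay Ctsh (13.7), Ctsc (9.09), Cln3 (8.63) and Tfeb. With the length of the longest transcript in place of the merged exons, 9 of the 10 highest members were again among the 10 highest.

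The highest and lowest values of the members were not spread evenly over the libraries. CD replicate 2 held the highest value of 10 of the 38 members (26.3%, against 15.1% of all tested genes) and KD replicate 1 that of 8 (21.1% against 12.8%). CD replicate 4 held the lowest value of 12 members (31.6% against 18.8% of all genes), among them the v-ATPase subunits Atp6v0d1, Atp6v1a, Atp6v1b2 and Atp6v1h. KD replicate 1 held the lowest value of 1 member (2.63% against 14.2%). Within the 4 libraries with Xist and within the 3 without it, 22 of the 38 members had a KD to CD ratio of the same direction and 16 had opposite directions. These shares are descriptions, since the members are not independent of each other.

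**Figure D5:**
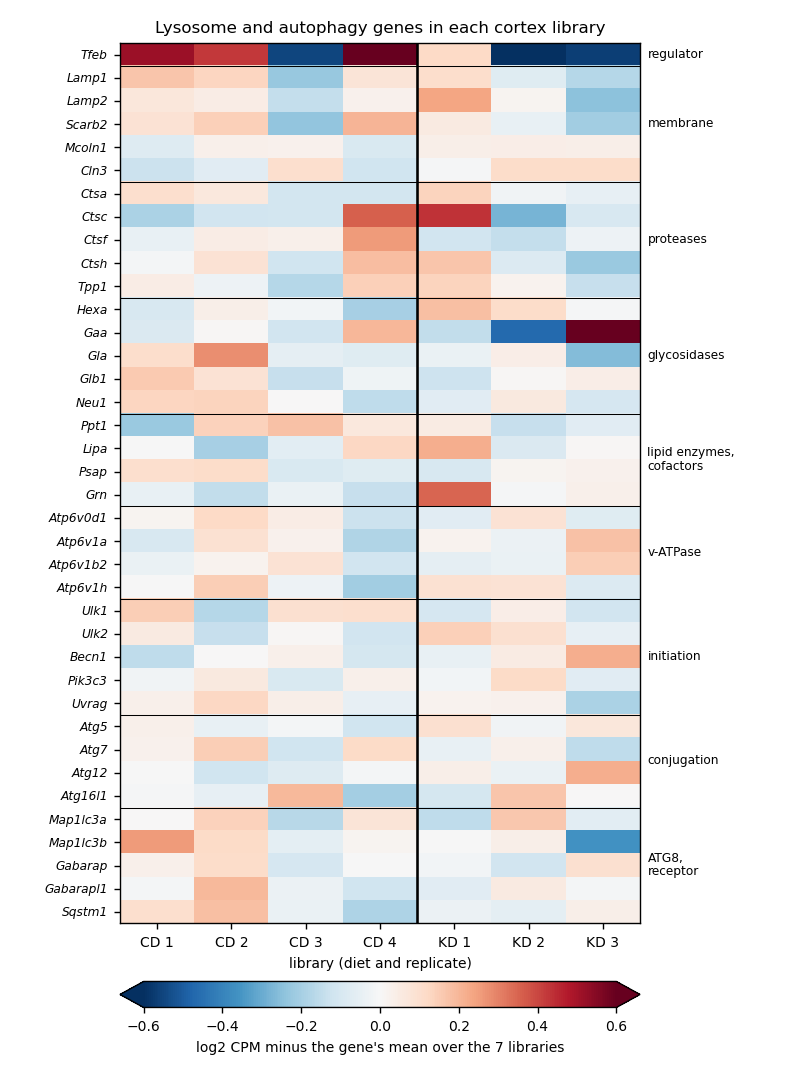
Each of the 38 genes (rows, grouped by role) in each of the 4 CD and 3 KD libraries (columns), coloured by log2 CPM minus the mean of the gene over the 7 libraries. Tfeb is dark blue in CD 3, KD 2 and KD 3, Gaa is dark red in KD 3, Grn and Ctsc are red in KD 1, and most other cells are pale on both sides of the line between diets.

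A further 132 genes of the same pathways were examined beside these members. Of them 129 were tested, 53 were higher in KD (41.1%, against 49% of all genes) and 76 were lower, with a median log2 fold change of -0.0096. None had an adjusted p under 0.05 in edgeR's quasi-likelihood test, and 1 of 129 had a raw p under 0.05 (0.775% against 3.19% of all). That gene was Tecpr1, which encodes a protein linking autophagosomes to lysosomes. It was at 93.9, 85.6, 84.5 and 81.4 CPM in CD and 72.0, 77.2 and 71.8 CPM in KD. All 3 KD values were below all 4 CD values, with a log2 fold change of -0.23 (SE 0.08) and a raw p of 0.0187 in the same test. The raw p was 0.0623 without KD replicate 1 and 0.0675 in the likelihood-ratio test of edgeR. The next smallest raw p among genes lower in KD were those of Laptm4b, a lysosomal membrane protein gene, Manba, for beta-mannosidase, Atg13, for a partner of the ULK kinases, and Cln8, for a carrier of newly made lysosomal enzymes. Their log2 fold changes were -0.28, -0.26, -0.15 and -0.24. Among genes higher in KD they were those of Galc, for the galactosylceramidase of myelin lipid breakdown, Tmem106b and Mfsd8, for lysosomal membrane proteins, Galns, for a sulfatase, and Asah1, for acid ceramidase. Their log2 fold changes were 0.22, 0.15, 0.19, 0.26 and 0.14. Ranges of the diets did not overlap for 2 of the 129 with higher values in KD, Galc and Pla2g15, and for 2 with lower values, Tecpr1 and Atg13, 1.55% in each direction against 2.05% and 2.07% of all tested genes.

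Galc was at 15.4, 15.9, 16.4 and 16.8 CPM in CD and 18.8, 17.6 and 19.7 CPM in KD. The 3 KD values lay above all CD values, with a raw p of 0.0523 in edgeR's quasi-likelihood test. Tfe3 and Mitf, which encode close relatives of TFEB, had log2 fold changes of -0.00031 and -0.27, and raw p of 0.998 and 0.141 in the same test. Mitf was at 17.6, 17.5, 16.7 and 22.8 CPM in CD and 19.0, 14.2 and 13.1 CPM in KD. Its lowest values were in KD replicates 2 and 3, and the diets overlapped. Ctsd, the major aspartic protease of lysosomes, was at 976, 871, 772 and 609 CPM in CD and 1126, 920.0 and 637 CPM in KD, with its highest value in KD replicate 1 and its lowest in CD replicate 4, the libraries with the highest and lowest microglia markers. Its log2 fold change was 0.15 with a 95% interval from -0.34 to 0.63. Of the 3 genes not tested, Atp6v0c had at most 1 count and Mcoln3 at most 8 counts in any library, and Vamp7 was not found under its symbol. Atp6v0b, for another v-ATPase subunit, had a mean of 185 CPM in CD and 182 CPM in KD. The annotation used for counting is not given, so the low Atp6v0c count does not show that its RNA was absent.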

How the data were processed

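RNA from 10 mg of frozen cortex per mouse (300 ng per library) was made into stranded total RNA libraries and read as 50 bp pairs. The authors aligned the reads to mm10 with STAR and deposited raw counts per gene symbol and mouse, counted with the HTSeq method inside STAR. The annotation, versions and strand setting are not given in the sources used here, so antisense and overlapping genes may share reads. Exons of other genes overlap those of 13 members, on the same strand for 1 of them (Glb1).

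Groups were taken from the sample titles. edgeR 4.0.16 in R 4.3.3 was run on the deposited counts with filterByExpr, TMM, estimateDisp, glmQLFit with robust=TRUE and glmQLFTest, over 15881 genes holding 99.97% of the counts. TMM factors were 0.978 to 1.038. The study names edgeR, TMM and a raw threshold of 0.01 but not the test within edgeR. It reports several times more genes at that threshold than the 51 of 15881 called here. Limma 3.58.1 and DESeq2 1.42.0 served as alternatives, beside RLE, upper-quartile and unscaled library sizes, other filters, the likelihood-ratio test, robust=FALSE, Xist as a covariate, a replicate block and leaving out each library. The SE is the log2 fold change divided by the root of F, and 95% intervals used the total degrees of freedom of the fit. Precision is limited by 3 and 4 animals and by the depth of 22272883 to 36614954 counts.

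Of the symbols, 23055 of 23413 (98.47%) were matched to GENCODE M21, 1278 by older names, for lengths and positions. Levels per length are counts per kilobase of merged exons. Promoter letters were read from RefSeq windows. Figures were drawn with matplotlib 3.10.9. Counts of any 2 libraries differed by 16.1 to 84.4 in chi-square per gene, where 1 is sampling noise, so each was counted as a separate sample.

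The members and gene lists were chosen with earlier results of these data known. Every member is named, and values per library are given for members with separated ranges, for the smallest raw p and the highest level per length of each role, for Tfeb and for the ATG8 family. Values of Gaa, Scarb2, Ctsc, Galc, Mitf and Ctsd were added after they were seen. Other pathway genes named are, for each direction, the 5 of smallest raw p, beside Tfe3, Pla2g15 and those just listed. The level of 1 marker gene is not reported here.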

Additional observations from a re-analysis of the deposited data

Results flagged for a closer look

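In 2 of 43 values examined, 1 CD library stood far from the other 3, a number that chance alone would give (2.15 expected). Ctsc, a cathepsin, was at a log2 CPM of 3.93 in CD replicate 4 against 3.38 to 3.47 in the other CD libraries, a gap of 0.849 of the range. Ulk1, a kinase that starts autophagy, was at 5.05 in CD replicate 2 against 5.32 to 5.37, a gap of 0.839 of the range. The limit for 4 libraries is 0.829, and groups of 3, such as KD, were not examined this way.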

How the results depend on the processing

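The count of 0 members with an adjusted p under 0.05 and of 0 with a raw p of at most 0.01 held under all 18 alternatives. Of the 38 members, 21 kept the sign of their log2 fold change in all 18 and 17 changed it in at least 1, and 4 (Tfeb, Grn, Gaa and Map1lc3b) had a raw p under 0.05 in any. Members with a raw p under 0.05 numbered 1 with Xist as a covariate (6.52% of all tested genes), and 0 to 2 when single libraries were left out (Tfeb without CD replicate 3 or KD replicate 1, Grn without KD replicate 2, Gaa and Grn without KD replicate 3), where 1.63% to 7.38% of all tested genes did. Members with separated ranges numbered 1 after upper-quartile scaling (4.16% of all tested genes) and 3 to 6 when single libraries were left out (5.86% to 14.3% of all). Other pathway genes with a raw p under 0.05 numbered 2 with library size alone, with any count or with 1 CPM in 3 libraries, 2 with robust=FALSE, 4 of 129 with Xist as a covariate (6.52% of all tested genes), 0 in the likelihood-ratio test, and 1 to 4 when single libraries were left out (1.63% to 7.38% of all). The log2 fold change of Gaa reversed to -0.31 without KD replicate 3 and ranged from -0.31 to 0.28 over the libraries left out. The number of promoters with the letters was 10 for TCACGTG and 12 for CACGTG, which are shorter. Other scalings moved the median of all genes by less than the SE of any member.

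With the replicate number as a block, 1 member (Map1lc3b, log2 fold change -0.21, raw p 0.0446 in edgeR's quasi-likelihood test) and 3 other pathway genes had a raw p under 0.05, where 5.89% of all tested genes did. The labels do not say that a number marks a shared litter or day, and pairing was accepted only with a correlation over 0.1 in every pair. Deviations of same-numbered libraries correlated at 0.251, 0.195 and 0.098 across genes, so the third pair missed this limit, and the numbers were not taken to pair the mice. As a hint from the data, 4 of 6 libraries correlated best with their own number. Depth limits Tfeb most, with 39 to 159 counts per library.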
